A study of Mus musculus with 6 samples.

Results

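The receptors for serotonin, dopamine, noradrenaline and acetylcholine were followed as 46 protein-coding genes in hippocampus of wild-type (WT) and Prmt9 knockout (KO) mice. The members were taken by symbol from the mouse annotation: 14 serotonin (Htr), 5 dopamine (Drd), 9 adrenergic (Adra, Adrb), 5 muscarinic (Chrm) and 13 nicotinic (Chrna, Chrnb) receptor genes, of 36008 genes in the deposited table. Each group held 3 female mice of the B6J strain aged 2 weeks, same-sex littermates, with 1 hippocampus library of polyadenylated RNA per mouse. KO mice carried a whole-body deletion of Prmt9, an arginine methyltransferase, made in the germline with a CMV-Cre line, and WT mice were controls without this loss. The deletion was not limited to neurons, so these values do not separate an effect in the cells that carry the receptors from an effect elsewhere in the body. All levels are TPM, the share of a transcript in the library scaled to its length, which can be set side by side between genes. Prmt9 itself had 14.0 ± 1.93 TPM (SD, n = 3) in WT and 4.40 ± 0.409 TPM (SD, n = 3) in KO, which checks the labels. The deletion removes exon 5 alone. The paper reports that reads of this exon were lost entirely, while those of the other exons were reduced. It also reports loss of the PRMT9 protein in all tissues of KO mice.

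Monoamines and acetylcholine reach the hippocampus on fibres of neurons whose cell bodies lie in the brain stem, midbrain and basal forebrain, and they set the excitability and plasticity of hippocampal circuits rather than carrying the fast excitatory signal. Most of their receptors are G protein-coupled receptors, which act through Gq/11 (phospholipase C), Gi/o (less cyclic AMP) or Gs (more cyclic AMP). The 5-HT3 and nicotinic receptors are instead cation channels of 5 subunits each. Markers of these source neurons were low in the libraries, and not all were near 0. Of the cholinergic markers, Chat was at 0.0746 to 0.129 TPM and the choline transporter gene Slc5a7 at 0.508 to 0.957 TPM over the 6 mice. Of the serotonergic markers, Fev was at 0 to 0.0220 TPM and Tph2 at 1.05 to 1.31 TPM. Of the noradrenergic and dopaminergic markers, Slc6a2 was at 0.00947 to 0.0591 TPM and Th at 1.07 to 2.35 TPM. Hippocampal excitatory markers were present, with Slc17a7 between 736 and 960 TPM and Prox1, a factor of dentate granule cells, between 20.3 and 41.4 TPM. In whole tissue, fewer cells of a type and less RNA per cell cannot be told apart.

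Estimated counts summed to between 194098391 and 286771677 per mouse. WT mouse 1 had the lowest sum, and 37.4% of its transcripts had no count, against 22.8% to 24.8% in the other mice. The mice numbered 1 of both genotypes stood apart from the other 4. On the leading axis of variation in gene counts (principal component 1, 67.4% of the variance), WT mouse 1 was at -110 and KO mouse 1 at -30.6, against 31.5 to 37.8 for the rest. The summed TPM of 6 oligodendrocyte markers was 2156 and 1127 in WT and KO mice 1 and between 8226 and 12004 in the other mice. Ttr, the leading transcript of choroid plexus, ranged from 589 to 7157 TPM.

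Some receptors differ by short alternative stretches that the transcript values can separate, and these are shown because the results on receptor forms turn on them. Sequences are from the GENCODE transcripts of GRCm38, written 5′ to 3′ on the gene's strand, with the alternative stretch in capitals and neighbouring exon bases in lower case. The Htr2c stretch of 95 bases (chrX:147169676-147169770, + strand) is the end of an exon with an alternative 5′ splice site. Its length leaves a remainder of 2 bases after division into codons, and skipping it leaves a receptor of 172 codons in place of 459. These bases also hold adenosines that are known targets of A-to-I editing, which the files do not measure. The Htr3a stretch of 18 bases (chr9:48899991-48900008, - strand) keeps the frame and separates receptors of 489 and 483 codons. In Htr7, 5 bases (chr19:35969304-35969308, - strand) at an exon end separate receptors with tails that end at codon 435 or 448. A Htr7 exon of 58 bases (chr19:36041555-36041612, - strand) is found in transcripts annotated for nonsense-mediated decay. The Drd2 exon of 87 bases (chr9:49403194-49403280, + strand) marks the long form of the D2 receptor. Drd2 had 1 transcript in the files, of 444 codons, so the long and short D2 forms could not be separated.
Htr2c: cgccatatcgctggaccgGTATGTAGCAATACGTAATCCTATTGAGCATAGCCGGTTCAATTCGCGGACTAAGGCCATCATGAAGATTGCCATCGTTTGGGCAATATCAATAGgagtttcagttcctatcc
Htr3a: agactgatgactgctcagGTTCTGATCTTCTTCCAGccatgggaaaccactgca
Htr7 exon end: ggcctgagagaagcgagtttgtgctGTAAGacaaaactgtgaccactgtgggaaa
Htr7 58-base exon: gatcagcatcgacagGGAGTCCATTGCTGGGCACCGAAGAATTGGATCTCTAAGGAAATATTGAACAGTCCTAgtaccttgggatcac
Drd2: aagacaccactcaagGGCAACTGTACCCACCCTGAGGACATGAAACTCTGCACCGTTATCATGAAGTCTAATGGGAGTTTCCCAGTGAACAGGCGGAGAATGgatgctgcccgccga

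Of the 46 receptor genes, 33 had a mean of at least 1 TPM over the 6 mice. In WT mice, 10 had a mean of at least 10 TPM, 23 lay between 1 and 10 TPM and 13 lay below 1 TPM. The muscarinic M1 receptor gene Chrm1 was the highest and held 27.2% of the summed receptor TPM of WT mice. The order after it was Adra1d, Chrm3, Chrnb2, Chrna7, Chrm4, Chrna4, Htr2c, Htr1a and Adra2c. Of the 10 highest genes by KO mean, 9 were among the 10 highest by WT mean. Neighbours in the WT order seldom differed beyond their spread: the ranges of the 3 WT mice were apart in 3 of 45 neighbouring pairs, Chrm1 above Adra1d, Adra2b above Htr3b and Chrna10 above Chrna9. Against the whole library Chrm1 was high as well, since 91.9% of the protein-coding genes in the table had a lower WT mean.

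**Figure D1:**
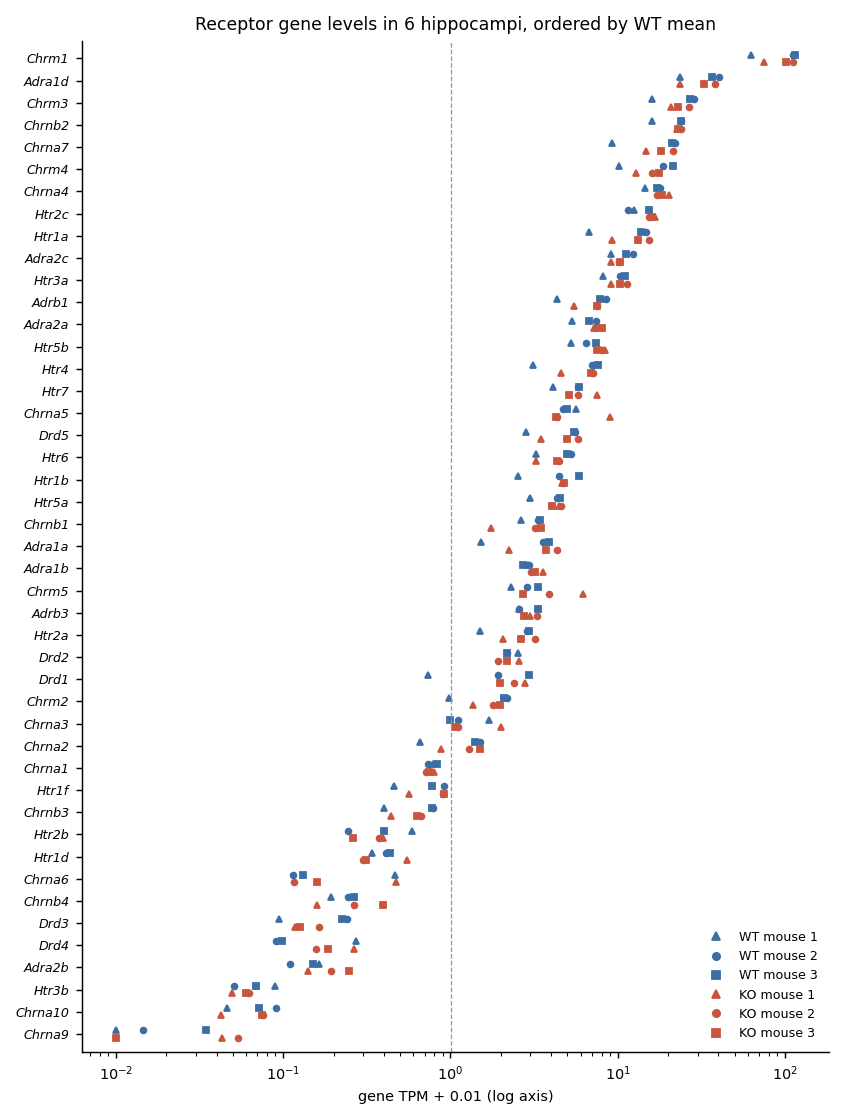
Level of 45 receptor genes in each mouse, as TPM + 0.01 on a log axis, with genes ordered by WT mean; blue points are WT, red points are KO, the shape gives the mouse number and the dashed line marks 1 TPM. Chrm1 stands above all other genes in every mouse, and triangles, the mice numbered 1, lie at the left of many rows.

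Of the 45 receptor genes with enough reads for a test, none was called differentially expressed between WT and KO (edgeR's quasi-likelihood test, adjusted p below 0.01 and fold change above 1.5). Over all 20335 genes tested, 0.0% were called, and the deleted gene was among those not called: Prmt9 had a log2 fold change of -1.71 and an adjusted p of 0.0327 (edgeR). An unadjusted p below 0.05 was reached by 0 of the 45 receptor genes, against 1.23% of all genes (edgeR). The DESeq2 Wald test called 0 receptor genes and gave 1 unadjusted p below 0.05. The share of all genes for the DESeq2 test is not given here. The log2 fold changes (KO over WT) ran from -0.43 to 0.55, none beyond 1.5-fold, with a median of 0.03 against -0.01 over all genes. They were above 0 for 24 receptor genes and below 0 for 21, and 46.9% of all tested genes were above 0. The lowest unadjusted p, 0.0569, belonged to Adra2c, and its adjusted p was 1.0 (edgeR). Standard errors of the log2 fold changes ran from 0.09 to 0.46 for the 33 genes of at least 1 TPM. Differences of less than 1.5-fold could not be called for any of them, and Prmt9 was not called at a larger one. Every KO mouse lay above every WT mouse for 3 receptor genes (Htr2c, Htr5b and Adra1b), against 5.28% of all tested genes, and below for 0 receptor genes, against 1.39% of all tested genes. With 3 mice a group, the smallest two-sided p of an exact permutation test is 0.1. The labels do not say whether a shared mouse number marks a litter or a batch. Mice of the same number gave KO above WT in 3 of 3 pairs for 5 of the 33 genes of at least 1 TPM, against 20.0% of all genes of that level, and KO below WT for 3 (Adra1d, Adra2c and Htr6), against 8.18%.

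**Figure D2:**
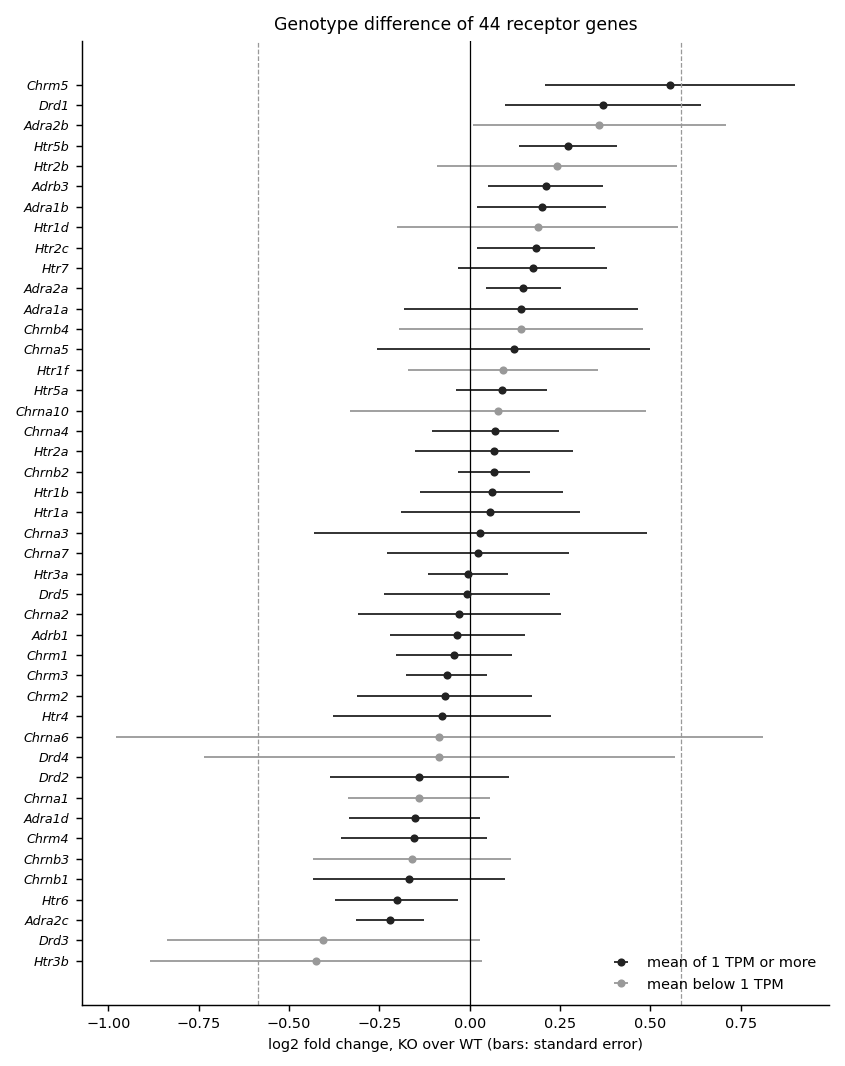
Fitted log2 fold change (KO over WT) of 44 tested receptor genes with bars of 1 standard error; black, mean of at least 1 TPM; grey, mean below 1 TPM; dashed lines mark a fold change of 1.5 in either direction. No point lies beyond the dashed lines, and the bars of low genes such as Chrna6 are the widest.

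All 5 muscarinic receptor genes were expressed, and their summed level made up 39.9% of the receptor TPM of WT mice. Chrm1 encodes the Gq/11-coupled M1 receptor of pyramidal and granule cells. Its TPM was 62.7, 111 and 115 in WT mice 1, 2 and 3 and 74.8, 111 and 102 in KO mice 1, 2 and 3. Both mice numbered 1 were the lowest of their group, and the genotypes overlapped (log2 fold change -0.04, standard error 0.16). The M3 gene Chrm3, also coupled to Gq/11, had 16.0, 28.5 and 26.9 TPM in WT and 20.7, 26.6 and 23.0 TPM in KO. The M4 gene Chrm4, coupled to Gi/o, had 10.2, 18.7 and 21.4 TPM in WT and 12.9, 16.0 and 17.5 TPM in KO. For these receptors too, the mice numbered 1 were lowest within each genotype and the groups overlapped. Chrm2, the other Gi/o-coupled receptor of the family, was far lower, with 0.966, 2.16 and 2.08 TPM in WT and 1.35, 1.79 and 1.98 TPM in KO. Chrm5, known from dopaminergic neurons, had 2.31, 2.85 and 3.35 TPM in WT and 6.21, 3.88 and 2.71 TPM in KO. It had the highest log2 fold change of all 45 genes tested (0.55, standard error 0.35, unadjusted p = 0.159, edgeR). KO mouse 1 held the highest value and KO mouse 3 lay within the WT range, and without KO mouse 1 the log2 fold change was 0.12.

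Nicotinic receptors are assembled from alpha and beta subunits, and 7 of the 13 subunit genes had at least 1 TPM. Chrnb2 and Chrna4, which together form the main high-affinity nicotine receptor of the brain, were at similar levels. Chrnb2 had 16.0, 23.9 and 23.7 TPM in WT and 22.6, 24.0 and 22.9 TPM in KO, and Chrna4 had 14.6, 17.9 and 17.2 TPM in WT and 20.2, 17.1 and 18.4 TPM in KO. The groups overlapped for both genes. Annotated exons of Chrnb2 share 1365 bases with those of Adar (64.5 TPM over the 6 mice) on the opposite strand. The kit kept strand, but whether the quantification used it is not given in the sources used here, so reads of the shared bases may not be separated. Chrna7, which forms receptors of a single subunit type with high calcium permeability, had 9.24, 21.9 and 21 TPM in WT and 14.8, 21.2 and 18.1 TPM in KO. Again the mice numbered 1 were lowest and the genotypes overlapped.

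The accessory subunit gene Chrna5 went the other way between mice, with 5.6, 4.71 and 4.96 TPM in WT and 8.92, 4.33 and 4.24 TPM in KO. KO mouse 1 was the highest and the other KO mice were below all WT mice. Its neighbour on chromosome 9, Chrna3, a subunit of ganglionic and habenular receptors, had 1.69, 1.09 and 0.984 TPM in WT and 1.98, 1.09 and 1.06 TPM in KO, with both mice numbered 1 above the rest. Markers of thalamus and habenula, which lie close to the hippocampus, did not move together. Against the mean of mice 2 and 3, 3 of 7 (Tcf7l2, Prkcd and Lef1) were lower in mouse 1 of both genotypes. Slc17a6, Gpr151 and Calb2 were higher in mouse 1 of both genotypes, and Pou4f1 had opposite signs in WT and KO. The summed TPM of the 7 markers was 164 and 180 in WT and KO mice 1 and 126 to 137 in the other mice. Of that sum, Calb2 held 117 and 128 TPM in mice 1 and 70.1 to 75.2 TPM in the others, while Tcf7l2, a factor of thalamic neurons, was at 3.09 and 2.65 TPM in mice 1 and 5.12 to 5.62 TPM in the others. The part of these markers in the subunit levels was not tested. Chrna2, known from a class of hippocampal interneurons, had 0.649, 1.5 and 1.4 TPM in WT and 0.870, 1.29 and 1.5 TPM in KO. Chrnb1, a subunit of the muscle receptor, had 2.64, 3.33 and 3.41 TPM in WT and 1.73, 3.2 and 3.48 TPM in KO, of which protein-coding transcripts held a share of 0.651 in WT and 0.702 in KO. The other muscle subunit gene of the list, Chrna1, was between 0.706 and 0.823 TPM in every mouse. Chrnb3, Chrnb4, Chrna6, Chrna10 and Chrna9 were below 1 TPM in every mouse. Chrna9, a subunit of cochlear hair cells, was at 0 to 0.044 TPM and was the member that had too few reads for a test.

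Adrenergic receptor genes summed to 67.8 ± 15.4 TPM in WT and 66.7 ± 10.6 TPM in KO (SD, n = 3 each). Adra1d, an alpha-1 receptor coupled to Gq/11, was the highest of them, with 23.6, 40.2 and 36.6 TPM in WT and 23.4, 38.1 and 32.6 TPM in KO. It was lowest in the mice numbered 1 of both genotypes, and the groups overlapped (log2 fold change -0.15, standard error 0.18). Adra1a had 1.5, 3.57 and 3.86 TPM in WT and 2.22, 4.32 and 3.73 TPM in KO. Adra1b had 2.91, 2.95 and 2.71 TPM in WT and 3.58, 3.04 and 3.19 TPM in KO, so that every KO mouse was above every WT mouse (p = 0.1 in a two-sided exact permutation test). This separation was narrow, and the edgeR test gave 0.20 as the log2 fold change (standard error 0.18, unadjusted p = 0.306).

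The alpha-2 receptors are coupled to Gi/o and also act as autoreceptors on noradrenergic endings. Adra2c had 9.12, 12.3 and 11.2 TPM in WT and 9.07, 10.1 and 10.3 TPM in KO. The groups overlapped only through WT mouse 1, and the log2 fold change was -0.22 (standard error 0.09). With mice of the same number compared in pairs (replicate block), the unadjusted p of Adra2c was 0.0200 (edgeR). Such mice are not known to be littermates of each other. In that comparison 2 receptor genes, Adra1d and Adra2c, were below 0.05, against 5.73% of all genes, and the lowest adjusted p of any receptor gene was 0.791 (edgeR). Adra2a lay the other way, with 5.35, 7.38 and 6.71 TPM in WT and 7.25, 7.42 and 8.09 TPM in KO, and overlapped between genotypes. Adra2b was below 1 TPM in every mouse. Of the Gs-coupled beta receptors, Adrb1 was the highest, with 4.31, 8.50 and 7.80 TPM in WT and 5.45, 7.49 and 7.49 TPM in KO. Adrb3, known for its role in fat, was listed with 2.56, 2.58 and 3.34 TPM in WT and 2.97, 3.30 and 2.73 TPM in KO. Its protein-coding transcripts held a share of 0.234 ± 0.040 in WT and 0.278 ± 0.040 in KO (SD, n = 3 each), or 0.663 and 0.828 TPM, so most of its listed level was in short transcripts without a coding sequence.

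Serotonin receptor genes were the largest family, with 10 of 14 at 1 TPM or more and all coupling types present. Htr2c, coupled to Gq/11 and abundant in choroid plexus as well as neurons, was the highest, with 12.4, 11.5 and 15.3 TPM in WT and 16.8, 15.4 and 16.0 TPM in KO. Every KO mouse was above every WT mouse by a narrow margin (p = 0.1 in a two-sided exact permutation test, edgeR log2 fold change 0.18, standard error 0.16). The summed TPM of 8 choroid plexus markers was 7296, 616 and 2022 in the same WT mice and 873, 2351 and 3366 in the KO mice, most of it Ttr. Of these 8 markers, 1 was below the mean of mice 2 and 3 in mouse 1 of both genotypes. This was Kl, at 7.44, 6.76 and 11.9 TPM in WT and 3.46, 12.4 and 15.5 TPM in KO. The other markers, Ttr included, were above that mean in WT mouse 1 and below it in KO mouse 1. The part of choroid plexus in the Htr2c level was not tested. Htr2a, the related Gq/11 receptor and the target of classical psychedelics, had 1.48, 2.84 and 2.95 TPM in WT and 2.06, 3.19 and 2.63 TPM in KO. Htr2b was below 1 TPM and shares 252 exon bases with Psmd1 (71.4 TPM) on the opposite strand.

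Among the Gi/o-coupled receptors, Htr1a, the main inhibitory serotonin receptor of pyramidal cells, had 6.71, 14.8 and 13.8 TPM in WT and 9.21, 15.4 and 13.2 TPM in KO. The mice numbered 1 were the lowest of each group and the genotypes overlapped. Htr1b, found on axon endings, had 2.53, 4.46 and 5.83 TPM in WT and 4.64, 4.71 and 4.77 TPM in KO. Htr5b, which is intact in mouse, had 5.24, 6.43 and 7.36 TPM in WT and 8.35, 8.09 and 7.50 TPM in KO, and Htr5a had 3.0, 4.31 and 4.48 TPM in WT and 4.42, 4.54 and 4.06 TPM in KO. For Htr5b the groups did not overlap, with 0.27 as the log2 fold change, a standard error of 0.14 and an unadjusted p of 0.0888 (edgeR). For Htr5a they overlapped.

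The Gs-coupled serotonin receptors were all present. Htr4 had 3.12, 6.98 and 7.61 TPM in WT and 4.55, 7.07 and 6.90 TPM in KO, and Htr7 had 4.07, 5.79 and 5.89 TPM in WT and 7.51, 5.78 and 5.11 TPM in KO. Htr6 had 3.25, 5.25 and 4.99 TPM in WT and 3.24, 4.45 and 4.34 TPM in KO. None of them differed between genotypes beyond the spread between mice. KO mouse 1 was the highest of all mice for Htr7 and the lowest of the KO mice for Htr4 and Htr6. Htr3a, the subunit that every 5-HT3 channel needs, had 8.10, 10.3 and 11 TPM in WT and 9.04, 11.4 and 10.2 TPM in KO. Its partner subunit gene Htr3b was between 0.040 and 0.079 TPM, so nearly all 5-HT3 subunit RNA was Htr3a.

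Dopamine receptor genes were the lowest family, with 9.07 ± 2.32 TPM in WT and 9.65 ± 0.628 TPM in KO for the 5 genes together (SD, n = 3 each). Drd5, the Gs-coupled D5 receptor, was the highest, with 2.83, 5.58 and 5.44 TPM in WT and 3.48, 5.76 and 5.0 TPM in KO. Drd2 had 2.54, 2.16 and 2.15 TPM in WT and 2.55, 1.91 and 2.16 TPM in KO. Drd1 had 0.721, 1.92 and 2.93 TPM in WT and 2.77, 2.39 and 1.98 TPM in KO. The lowest value of Drd1 was in WT mouse 1 and the others spread over both genotypes (log2 fold change 0.37, standard error 0.27). Without both mice numbered 1, the log2 fold change of Drd1 was 0.06. Drd3 and Drd4 were below 1 TPM in every mouse. The summed TPM of 7 markers of striatal projection neurons was 102 to 130 in WT and 96.4 to 135 in KO, so the groups overlapped for these markers as well.

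By coupling, the 9 Gq/11-coupled genes held 50.2% of the receptor TPM of WT mice, the 15 channel subunits 21.8%, the 14 Gi/o-coupled genes 18.6% and the 8 Gs-coupled genes 9.32%. The Gq/11 sum was 124, 204 and 208 TPM in WT and 150, 206 and 186 TPM in KO. The Gi/o sum was 46.9, 74.4 and 76.7 TPM in WT and 61.4, 71.7 and 71.3 TPM in KO. The Gs sum was 21.6, 38.1 and 39.6 TPM in WT and 30.8, 37.8 and 35.1 TPM in KO. In every one of these classes the mouse numbered 1 was the lowest of its genotype and the groups overlapped. The sum of the channel subunits was 60.4, 86.6 and 85.7 TPM in WT and 82.1, 85.5 and 81.9 TPM in KO, where WT mouse 1 was the lowest and the 3 KO mice lay close together. Exact permutation tests of the 4 sums gave two-sided p values between 0.9 and 1 before adjustment.

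**Figure D3:**
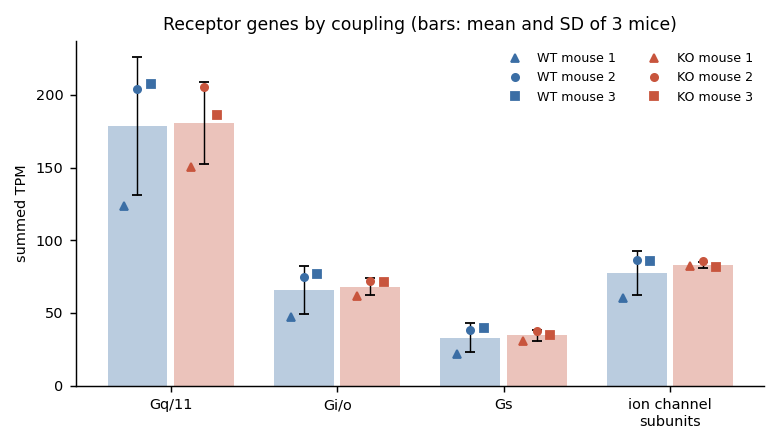
Summed TPM of the receptor genes by coupling class; bars give the mean and SD of 3 mice per genotype, points the single mice, with the shape for the mouse number. The Gq/11 class is the highest in every mouse, and WT mouse 1 (triangle) is the lowest WT mouse in all 4 classes.

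Many receptor levels moved with the mouse number. Of the 33 genes of at least 1 TPM, 22 were lower in mouse 1 than in the mean of mice 2 and 3 in both genotypes, against 55.7% of all genes of that level. Another 4 (Chrna5, Adra1b, Drd2 and Chrna3) were higher in mouse 1 of both genotypes, and 7 had opposite signs in WT and KO. The median log2 ratio of WT mouse 1 to the other WT mice was -0.66 over the receptor genes and -0.35 over all genes of at least 1 TPM. For KO mouse 1 these medians were -0.26 and -0.12. With both mice numbered 1 left out, 6 of 45 receptor genes had an unadjusted p below 0.05 (Chrm4, Adra2c, Htr6, Chrnb3, Drd4 and Adra2b), against 16.4% of all genes. None of the 6 was called, and the lowest adjusted p of a receptor gene was 0.185 (edgeR). Of 8 excitatory neuron markers, 6 were lower in mouse 1 of both genotypes, and their sum, most of it Camk2a and Slc17a7, was 1837 and 1921 TPM in WT and KO against 2902 to 3064 TPM in the others. The part of these markers in the receptor levels was not tested.

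**Figure D4:**
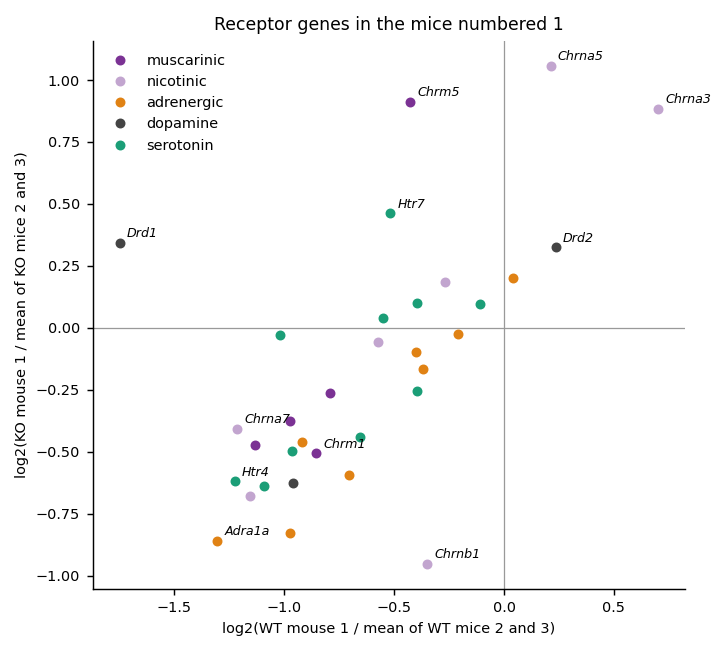
Level of 33 receptor genes in WT mouse 1 (x axis) and KO mouse 1 (y axis) as log2 ratios to the mean of the other mice of that genotype; each point is a gene, coloured by family. Most points lie in the lower left, and Chrna3 and Chrna5 lie at the upper right.

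Because Prmt9 methylates a splicing factor, the forms of each receptor were compared as well. Only the relative use of annotated transcripts was compared, since reads across splice junctions were not available. The paper instead tested single splicing events in these libraries, unannotated splice sites included, and reported changes in many genes. A receptor gene that is not called here may still hold such an altered event. In 16 of the 46 receptor genes the longest annotated coding sequence lay in 1 exon, against 10.8% of 17982 protein-coding genes tested. All 5 muscarinic genes, 5 adrenergic, 4 serotonin and 2 dopamine receptor genes were of this kind, and none of the nicotinic genes. Of the receptor genes, 22 had enough transcripts for a test of relative use, and 0 were called (edgeR diffSpliceDGE with a Simes test, adjusted p below 0.01), against 0.17% of 13561 genes. None of the 22 had an unadjusted p below 0.05, and the lowest was 0.119, for Htr2c. An F test over each gene's transcripts instead called 0 and gave 1 unadjusted p below 0.05. Of 91 receptor transcripts tested one by one, 0 were called by edgeR, against 0.0% of 75682, and 0 had an unadjusted p below 0.05, against 1.61% of all transcripts. DESeq2 called 0 of them and gave 2 with an unadjusted p below 0.05. For the F test and DESeq2, the shares over all genes or transcripts are not given here.

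The full-length Htr2c transcript with the 95 bases shown above held a share of 0.571, 0.809 and 0.778 of the gene's TPM in WT and 0.804, 0.789 and 0.763 in KO. The transcript without them, which encodes a truncated receptor, held 0.321, 0.159 and 0.175 in WT and 0.171, 0.143 and 0.157 in KO. WT mouse 1 alone stood apart. It was the mouse with the highest Ttr and also the one with the most transcripts without a count (37.4%). The part of choroid plexus, or of transcripts without a count, in this share was not tested. The Htr3a transcript with the 18 bases was the minor form, at 0.0348, 0.123 and 0.155 in WT and 0.142, 0.123 and 0.159 in KO. Again WT mouse 1 was the lowest and the genotypes overlapped.

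Htr7 was split over several transcripts. The form of 448 codons without the 5 bases held 0.608, 0.276 and 0.348 in WT and 0.437, 0.315 and 0.247 in KO, and the form of 435 codons with them held 0.266, 0.253 and 0.279 in WT and 0.181, 0.308 and 0.365 in KO. Transcripts with the 58-base exon held 0.0977, 0.382 and 0.311 in WT and 0.332, 0.302 and 0.301 in KO. All of these overlapped between genotypes, with exact two-sided permutation p values of 0.6, 0.7 and 0.9. WT mouse 1 had the lowest share of transcripts with this exon, and the other mice lay between 0.301 and 0.382.

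In the nicotinic genes, the Chrnb2 transcript without a coding sequence held 0.269, 0.400 and 0.441 in WT and 0.517, 0.397 and 0.407 in KO. A short Chrna4 transcript of 3 exons held 0.149, 0.207 and 0.216 in WT and 0.159, 0.248 and 0.276 in KO, and its difference of 0.0373 was 0.00494 when shares were taken from estimated counts. The leading Chrna5 transcript had 3 exons, against 6 in the full form, and held 0.681, 0.669 and 0.601 in WT and 0.586, 0.654 and 0.678 in KO. For Chrna3 the full form of 504 codons held 0.930, 0.817 and 0.802 in WT and 0.919, 0.852 and 0.803 in KO, with the mice numbered 1 highest. None of these shares separated the genotypes.

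The leading forms of Chrm1 have coding sequences of the same length in 1 exon, as do those of Chrm3, and they differ outside it. The leading Chrm1 transcript held 0.612, 0.652 and 0.653 in WT and 0.579, 0.644 and 0.628 in KO. The Chrm3 transcript of 5 exons held 0.908, 0.737 and 0.740 in WT and 0.875, 0.734 and 0.794 in KO, so that the mice numbered 1 of both genotypes were the highest. The genotypes overlapped for both genes.

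In all, 48 transcripts of 18 receptor genes had a mean share of at least 0.05 beside another such transcript. Every KO mouse was above every WT mouse for 3 of them, against 4.95% of 39619 transcripts compared in the same way, and below for 0, against 4.52%. The first was an Htr4 transcript with a shorter tail (363 codons), at 0.0925, 0.188 and 0.156 in WT and 0.231, 0.226 and 0.199 in KO. Its share differed by 0.0729 from TPM and by 0.0323 from estimated counts. The second was an Adra1a transcript of 427 codons, at 0.229, 0.366 and 0.339 in WT and 0.366, 0.367 and 0.442 in KO, where the nearest mice of the groups were almost equal. The third was the longer coding transcript of Adrb3, at 0.144, 0.144 and 0.107 in WT and 0.153, 0.146 and 0.241 in KO. Each gave the smallest p that 3 mice against 3 allow (exact permutation test, two-sided, p = 0.1).

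**Figure D5:**
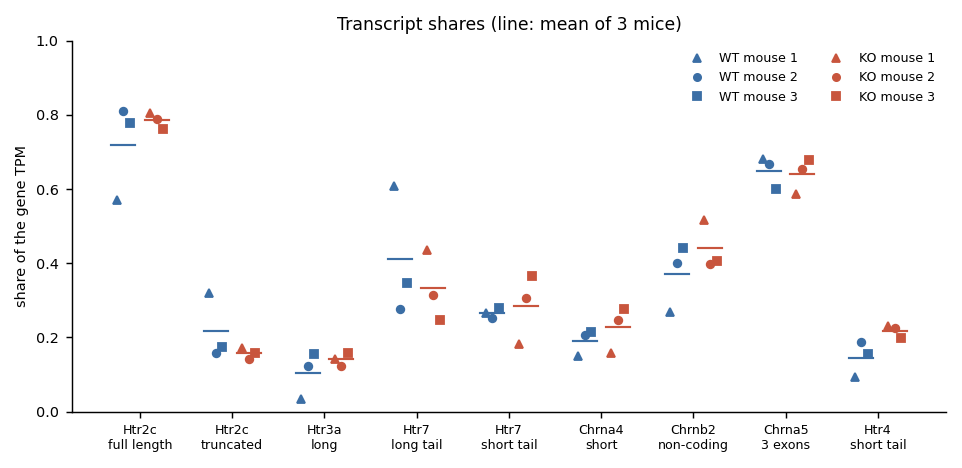
Share of the gene's TPM held by 9 receptor transcripts in each mouse; blue, WT; red, KO; the shape gives the mouse number and the line the mean of 3 mice. WT mouse 1 (triangle) lies away from the other WT mice for Htr2c, Htr3a and the Htr7 long tail, and of these 9 only the Htr4 short tail has genotypes that do not overlap.

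Genes that make, clear or answer these transmitters were compared from 7 lists, and in none was a member called or below an unadjusted p of 0.05 (edgeR). Over all 20335 genes tested, 0.0% were called and 1.23% had an unadjusted p below 0.05 (edgeR). The lists held 17 genes of monoamine synthesis, transport and breakdown, 8 of acetylcholine handling and 13 G protein alpha subunits. Another 13 were genes of nicotinic receptor assembly and partners, with the subunit genes Chrnd, Chrne and Chrng among them. The remaining lists held 13 adenylyl cyclases and phospholipase C beta enzymes and 14 receptor kinases, arrestins and scaffolds. The last list held 16 genes of RGS proteins, with Gnb5 and Rgs7bp included. Median log2 fold changes of the 7 lists ran from -0.14 to -0.01, against -0.01 over all genes. Of the monoamine genes, Slc29a4, a low-affinity monoamine transporter, was the highest, at 59.1 ± 7.78 TPM in WT and 53.3 ± 10.7 TPM in KO, and Maoa, a degrading enzyme, was at 14.4 ± 3.71 and 16.6 ± 6.12 TPM. Ache, which breaks down acetylcholine, was at 76.6 ± 0.386 TPM in WT and 78.4 ± 6.26 TPM in KO, and Slc44a1, a choline transporter, at 52.2 ± 23.6 and 48.7 ± 20.6 TPM. Prima1, which anchors acetylcholinesterase, was lowest in the mice numbered 1, at 1.80, 9.45 and 8.21 TPM in WT and 1.38, 7.56 and 8.64 TPM in KO. These and the following errors are SD with n = 3.

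In the list of nicotinic assembly and partners, Nptn, Ly6h and Ly6e were the highest, at 509 ± 92.4, 410 ± 63.1 and 341 ± 15.7 TPM in WT and 522 ± 24.8, 427 ± 76.7 and 333 ± 14.5 TPM in KO. A place on this list does not show that a gene's product acts on nicotinic receptors, which was not tested. Gnas, the Gs alpha subunit, was at 1313 ± 103 TPM in WT and 1381 ± 74.8 TPM in KO. Gnao1, the Go alpha subunit, was at 460 ± 72.3 and 454 ± 12.4 TPM and Gnai2, a Gi alpha subunit, at 138 ± 15.2 and 142 ± 6.34 TPM. Adcy1, a calcium-stimulated cyclase, had 145 ± 66.5 TPM in WT and 149 ± 48.7 TPM in KO, ahead of Adcy2 (45.0 ± 9.61 and 52.6 ± 4.10 TPM) and Plcb1 (44.5 ± 19.5 and 43.3 ± 12.1 TPM). In this list 12 of 13 genes were lower in mouse 1 of both genotypes. The calmodulin genes Calm2 and Calm3 led the kinase, arrestin and scaffold list, at 2414 ± 159 and 1395 ± 66.0 TPM in WT and 2567 ± 410 and 1405 ± 65.3 TPM in KO. Of the RGS list, Rgs4, which speeds the shut-off of Gi/o and Gq signals, was at 116 ± 8.62 TPM in WT and 121 ± 26.1 TPM in KO, followed by Gnb5 (99.99 ± 14.9 and 102 ± 6.23 TPM) and Rgs11 (79.2 ± 5.55 and 84.6 ± 6.82 TPM).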

How the data were processed

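Hippocampus RNA-seq libraries of 6 mice, 3 per genotype, were analysed. The authors made stranded polyA libraries and quantified transcripts with kallisto (version 0.46.0 in the processing notes) on GRCm38. The deposited files give estimated counts and TPM for 118783 transcripts, and a deposited table gives TPM summed per gene. Of the transcripts, 116710 matched GENCODE M21. No column of another sample was present (0).

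Estimated counts were rounded and summed per gene, and genes and transcripts were tested with edgeR 4.0.16 (TMM, filterByExpr, quasi-likelihood test, Benjamini-Hochberg adjustment over all genes) and transcript use with its diffSpliceDGE. Called means adjusted p below 0.01 with a fold change above 1.5. Standard errors of edgeR's log2 fold changes were derived from the test. Each is the absolute log2 fold change divided by the square root of the F value. DESeq2 1.42.0 and limma 3.58.1 were alternatives. The fits were also run on simulated data, with an outcome that is not given here and is not used for any result. Shares are transcript TPM over gene TPM. Genes were named at a mean of at least 1 TPM over the 6 mice or an unadjusted p below 0.05, and partner genes as the 3 of each list with the highest mean TPM, since none was called. Some genes that these rules name are not reported here. A few further genes were named to identify small counts, after their values were seen. The members, lists and tests were chosen with earlier results of these data known. Deviations of same-numbered mice correlated at 0.552, 0.417 and 0.378 (WT with KO mice 1, 2 and 3). WT mouse 2 and KO mouse 3 correlated at 0.409, and WT mouse 3 and KO mouse 2 at 0.396. The main tests compared the genotypes without pairing. Pairing by mouse number (replicate block) was run as an alternative, although the labels do not say what the number marks. The 6 mice are separate animals. The values of 1 receptor gene are not reported here, although it is included in the counts and sums.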

Additional observations from a re-analysis of the deposited data

How the results depend on the processing

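Under all 15 alternatives at the gene level, and those at the transcript and usage levels, no receptor gene or transcript was called. In the main setting 0.0% of all 20335 genes and 0.0% of all 75682 transcripts were called (edgeR). The shares called over all genes or transcripts under the alternatives, the replicate block included, are not given here. The lack of receptor calls cannot be compared with them. Paired by mouse number (replicate block), 0 receptor genes, 0 transcripts and 0 genes for transcript use were called, 2 receptor genes had an unadjusted p below 0.05, against 5.73% of all genes, and the median log2 fold change was 0.05 against 0.03 without the block. This median ran from -0.02 to 0.11 over all settings. Of the 33 named genes, 10 kept the sign of their log2 fold change under every alternative and 23 did not. The number of transcript shares with groups apart was 3 of 48. Leaving out 1 mouse gave 4 to 11, where fewer mice separate more easily: 9 without WT mouse 1, 8 without WT mouse 2, 11 without WT mouse 3, 10 without KO mouse 1 and 8 without KO mouse 3. Shares from estimated counts gave 2. The matching shares over all transcripts are not given here for these settings, so these counts cannot be compared with them. Within mouse numbers, 18 of 48 shares had 1 sign in 3 of 3 pairs, against 30.7% of all shares. Genes below 1 TPM had standard errors from 0.20 to 0.89, so differences were not detectable there unless large.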
